A study of Homo sapiens with 36 samples.

Results

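The genes described here are 39 genes of glycolysis and of the response to low oxygen, chosen by name and read from every probe that the platform annotation assigns to them. Of the 39 genes, 37 had a probe (63 of 48803 probes on the array), and all 37 were among the 12195 genes tested, since each had at least 1 probe above background on 4 or more arrays. The lactate exporter SLC16A3 and the carbonic anhydrase CA9 had no probe under this annotation and are not analysed here.

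Glycolysis turns glucose into pyruvate in the cytosol. Glucose enters through facilitative transporters and is trapped by hexokinase, the flux is set in large part at phosphofructokinase, and pyruvate is then either reduced to lactate or burned in the mitochondrion. When oxygen is low, the prolyl hydroxylases of the EGLN family no longer mark HIF1A for destruction, and HIF1A with its partner ARNT raises many of these genes together with genes of blood vessel growth, mitophagy and collagen modification. Breast cancer cells run much of this programme in the presence of oxygen too, and steroid hormones are known to act on some of its genes.

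RNA came from ZR-75-1, an established human breast cancer line of luminal type, and was measured on Illumina bead arrays in 9 groups of 4 arrays, 36 in all. After plating for 48 h in phenol red-free medium with 10% hormone-stripped serum, cells were treated for 16 h with ethanol vehicle (VC), estradiol (E2), dihydrotestosterone (DHT, an androgen), medroxyprogesterone acetate (MPA, a synthetic progestin) or progesterone (PROG), or with E2 combined with each of the latter (E2+DHT, E2+MPA, E2+PROG). The ninth group is written E2s+PROG, and the labels do not say what the s stands for. E2 and DHT were used at 10 nM alone and in combination with each other, whereas no dose is stated for MPA or PROG or for the E2 combined with them, and no oxygen condition is named. All values come from this single cell line. The labels do not call the replicates separate cultures, so p-values measure the spread between these arrays, which may be technical. In bulk RNA, fewer cells that express a gene and less RNA per cell cannot be told apart.

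The cells had the markers of their label, with 8 of 8 luminal genes above background on all 36 arrays, while the basal keratins KRT5 and KRT14 were above background on none. Among stromal markers, COL1A1 was above background on all arrays and COL1A2, COL3A1 and PDGFRB on none. Of leukocyte markers PTPRC and CD3D were above background on none and CD68 on all 36, and of endothelial markers CDH5 was above background on none, PECAM1 on 34 and VWF on 26. The part of these markers in the results was not tested. Hormone responses were present. PDZK1, an estrogen-induced gene, was at least 38.4-fold higher with E2 than with vehicle, where 1 of 4 arrays was above background. FKBP5, induced by androgen and progestin receptors, was 3.65-fold higher with DHT, 3.21-fold with MPA, while PROG gave 1.13-fold, which did not pass (limma adjusted p = 0.402). Between 33.2% and 37.9% of probes were above background per array, with a median signal from 121.6 to 247.5. One direction held 49.4% of the variance inside groups, and it set most of 12 arrays in neighbouring columns of the deposited table, columns 13 to 24, apart from the rest. All but E2+MPA replicate 4 of these 12, together with vehicle replicate 1 from outside them, scored lower than the other arrays. Those 12 arrays hold 3 of the 4 DHT arrays, 2 arrays each of E2, E2+MPA and E2+PROG, 1 each of vehicle, E2+DHT and E2s+PROG, and none of MPA or PROG. The labels name no batch. Values inside and outside these columns are given beside several results of the genes chosen by name above. For the further pathway genes at the end, the part of these columns was not tested.

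Sequence from 250 bases before the transcription start to the start itself, from RefSeq on GRCh38.p14, is shown for 3 of the hypoxia-inducible genes called in at least 1 test below, because each holds the core of the hypoxia response element. The core searched was ACGTG or GCGTG on either strand, so that a reverse match reads CACGT or CACGC. Capitals mark the matches, and CACGTG, which is also an E-box, counts as a pair of overlapping matches. PFKFB3, on chromosome 10, has a window at each of 2 annotated starts, chr10:6144671-6144920 and chr10:6202682-6202931, both on the plus strand.
PFKFB3 first start: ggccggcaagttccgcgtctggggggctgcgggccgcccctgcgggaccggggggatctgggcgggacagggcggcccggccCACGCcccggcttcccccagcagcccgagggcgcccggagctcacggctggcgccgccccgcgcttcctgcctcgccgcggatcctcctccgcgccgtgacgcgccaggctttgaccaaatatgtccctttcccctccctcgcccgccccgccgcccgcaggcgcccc
PFKFB3 second start: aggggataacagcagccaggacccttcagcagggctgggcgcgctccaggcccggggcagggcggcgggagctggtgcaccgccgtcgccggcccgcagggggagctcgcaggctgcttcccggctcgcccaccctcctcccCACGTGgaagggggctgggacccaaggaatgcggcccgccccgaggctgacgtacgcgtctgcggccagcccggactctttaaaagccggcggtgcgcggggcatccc
The window of DDIT4 lies at chr10:72273674-72273923 on the plus strand and holds 3 matches.
DDIT4: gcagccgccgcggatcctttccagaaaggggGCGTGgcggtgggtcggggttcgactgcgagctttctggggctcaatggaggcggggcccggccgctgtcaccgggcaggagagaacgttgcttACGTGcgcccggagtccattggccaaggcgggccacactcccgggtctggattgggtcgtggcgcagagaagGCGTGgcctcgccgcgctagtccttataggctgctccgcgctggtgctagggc
ANKRD37 has its window at chr4:185396591-185396840 on the plus strand, also with 3 matches.
ANKRD37: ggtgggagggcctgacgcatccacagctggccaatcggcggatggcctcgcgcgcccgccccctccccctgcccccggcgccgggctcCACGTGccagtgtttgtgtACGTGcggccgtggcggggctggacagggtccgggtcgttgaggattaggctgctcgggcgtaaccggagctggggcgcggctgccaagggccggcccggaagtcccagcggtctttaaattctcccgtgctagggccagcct
Windows were found for 33 of the 37 genes, 57 windows in all, and 33 of these 57 (57.9%) held the core, against 43.2% of 35116 promoter windows of the same length. AGAACA, the repeated arm of the DNA site shared by androgen and progesterone receptors, was in 3 of the 57 windows (5.26%) and in 12.4% of all windows on either strand. The estrogen response element, GGTCA and TGACC spaced by 3 bases, was in 0 of the 57 and in 0.0399% of all. The SLC2A1 window at its start on chromosome 1 held no match to any of these motifs. These are matches of letters and say nothing of binding.

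Differences among the treatment groups were called for a minority of the genes. Over all 9 groups, 8 of 37 genes differed by limma's moderated F test at an adjusted p under 0.05 (8.82% of the 12195 genes tested did), and 15 of 37 had an unadjusted p under 0.05 (19.8% of all genes). Adjusted p-values are Benjamini-Hochberg over all genes tested. The genes were chosen with earlier results of these data known, so these shares are no test of the set. The 8 were both glucose transporters, SLC2A3 (adjusted p = 8.27e-05) and SLC2A1 (0.00106), the regulatory enzymes PFKFB3 (1.4e-07) and PFKFB4 (0.0215), the enolase ENO2 (0.0161), and the hypoxia-inducible genes NDRG1 (0.00517), ANKRD37 (0.0266) and P4HA2 (0.0496). P4HA2 lies at the threshold, was kept under 14 of 45 alternatives, and had an adjusted p of 0.412 when its probes were averaged. In the authors' processed table PFKFB4 and ANKRD37 did not pass (adjusted p = 0.0771 and 0.0775), and leaving out DHT replicate 1, 2 or 4 also ended the ANKRD37 call (0.108, 0.0651 and 0.0875). Of the core glycolytic enzymes, ALDOA, TPI1, GAPDH, ENO1 and LDHA had adjusted p-values between 0.610 and 0.887 in this F test. PGK1, PKM, GPI and PGAM1 had lower ones, at 0.193, 0.250, 0.435 and 0.571, which did not pass either.

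**Figure D1:**
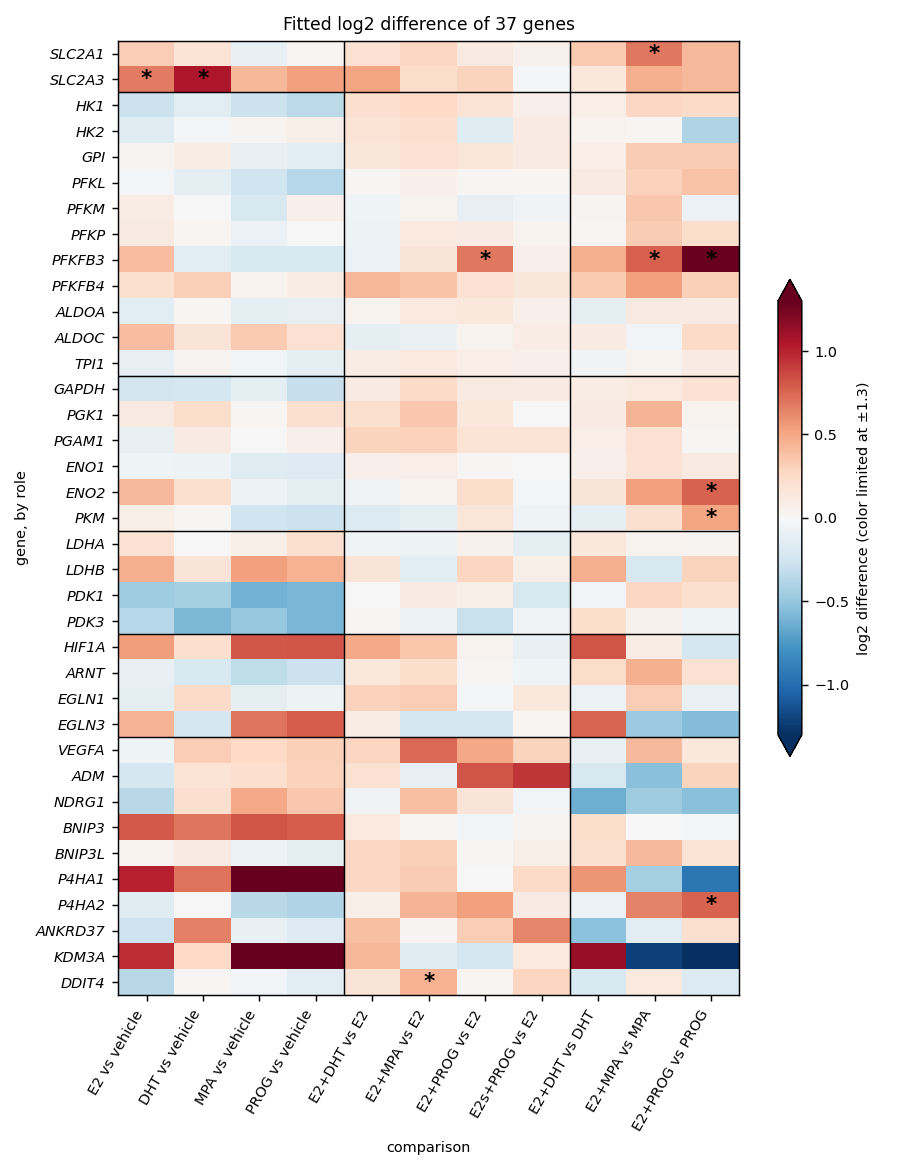
Fitted log2 differences of the 37 genes (rows, grouped by role from glucose transporters at the top to other hypoxia targets at the bottom) in 11 comparisons (columns), with red for higher and blue for lower in the first-named treatment and a star where the adjusted p was under 0.05. Stars stand on SLC2A3 with E2 and with DHT, on DDIT4 with E2+MPA against E2, on PFKFB3 in 3 columns, and on SLC2A1, ENO2, PKM and P4HA2 in columns set against MPA or PROG alone, while KDM3A and P4HA1 with MPA and PROG, at fitted differences of 1.77 to 2.12, carry none.

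Of the 2 glucose transporters, SLC2A3 passed with DHT and SLC2A1, at a difference of 0.18, did not. SLC2A3 encodes GLUT3, a transporter with high affinity for glucose. Its log2 intensity was 6.60, 7.50, 7.49 and 7.45 on the 4 vehicle arrays and 8.30, 8.18, 8.34 and 8.42 with DHT, so every DHT array was above every vehicle array. The rise was 1.05 on the log2 scale (SE 0.17, 2.07-fold, adjusted p = 0.000212). It was the 1 gene of 37 past the threshold with DHT against vehicle, where 2.4% of all genes passed, and 4 of 37 had an unadjusted p under 0.05 (13.6% of all genes). The difference was 1.14 among arrays outside columns 13 to 24, with 1 DHT array, and 0.85 inside them, with 1 vehicle array, and neither subset passed (limma adjusted p = 0.0583 and 0.481).

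E2 alone also raised SLC2A3. The E2 arrays read 8.09, 7.68, 8.09 and 7.87, a rise of 0.67 (SE 0.17, 1.59-fold, adjusted p = 0.0286), again the 1 gene of 37 past the threshold where 1.86% of all genes passed. This call depended on vehicle replicate 1, the lowest of the 36 arrays for this gene, and without it the difference was 0.45 (adjusted p = 0.251). Leaving out E2 replicate 1, 3 or 4 also ended it, with differences of 0.62, 0.62 and 0.69. The call with DHT remained without that array. MPA and PROG gave fitted differences of 0.43 (adjusted p = 0.140) and 0.54 (0.131), which did not pass. SLC2A3 was highest with E2+DHT, at a mean of 8.44 ± 0.22 (SD, n = 4) against 7.26 ± 0.44 for vehicle. E2+DHT exceeded E2 by 0.51 (95% interval 0.17 to 0.86, adjusted p = 0.256) and DHT by 0.13 (−0.21 to 0.48, adjusted p = 0.776). DHT exceeded MPA by 0.62 and PROG by 0.51 without passing (adjusted p = 0.154 and 0.161), so the order among these 3 hormones was not settled. SLC2A3 was read by 1 probe.

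SLC2A1 encodes GLUT1, the transporter of basal glucose uptake in most tissues. Its group means ran from 12.84 with MPA to 13.12 with DHT in the 4 groups without E2, and from 13.26 with E2 to 13.53 with E2+MPA in the 5 groups with E2. The E2 arrays, from 13.09 to 13.43, lay above the vehicle arrays, from 12.89 to 13.07, but the difference of 0.32 did not pass (adjusted p = 0.238).

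**Figure D2:**
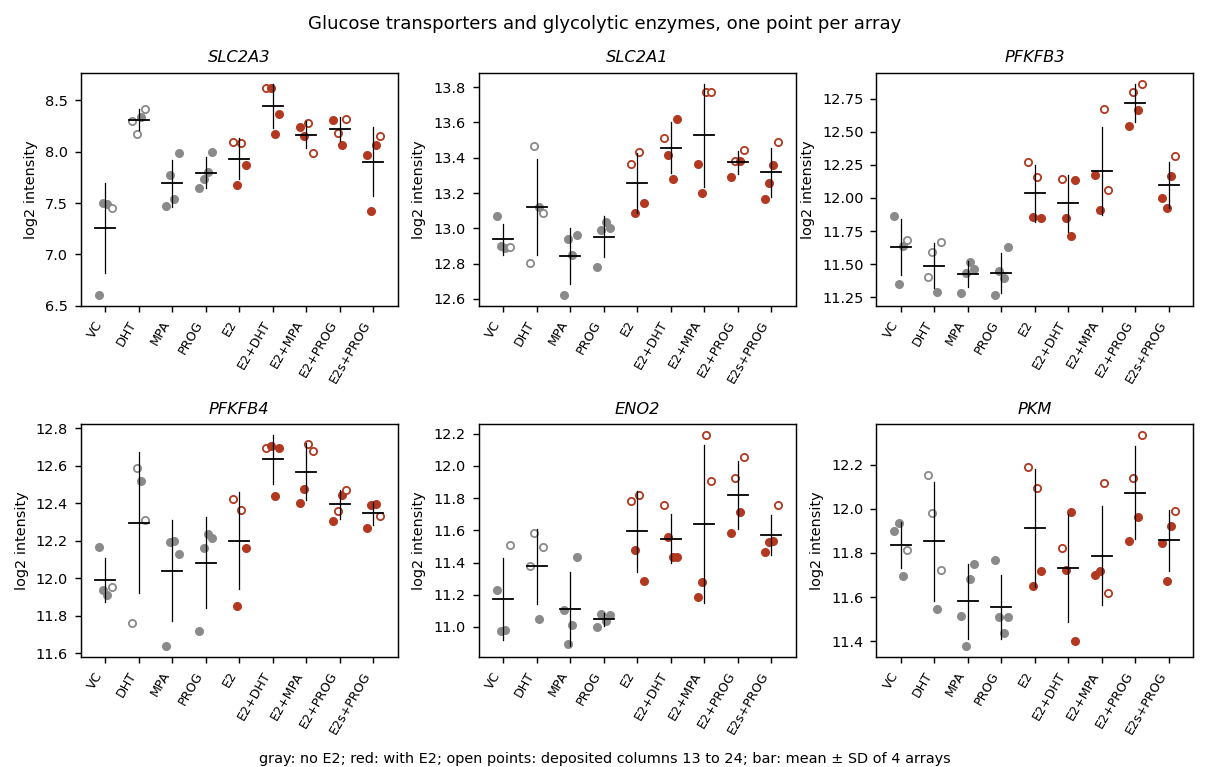
Normalized log2 intensity of SLC2A3, SLC2A1, PFKFB3, PFKFB4, ENO2 and PKM (y axes) in the 9 groups (x axes), 1 point per array, with gray for groups without E2, red for groups with E2, open points for deposited columns 13 to 24, and bars for the mean ± SD of 4 arrays. For SLC2A1, PFKFB3 and ENO2 the red means all lie above the gray means, PFKFB3 peaks with E2+PROG at 12.72, and 1 vehicle point of SLC2A3 lies at 6.60.

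This ordering by E2 was shared by 4 of the 37 genes, SLC2A1, PFKFB3, ENO2 and the phosphofructokinase subunit PFKP, for which all 5 group means with E2 were above all 4 without it (3.33% of all genes tested), and 0 genes had the opposite ordering (1.28% of all genes). All 4 genes read slightly higher in columns 13 to 24, which hold arrays with E2 but no MPA or PROG array: the median deviation from the group mean inside and outside them was 0.21 and −0.11 for ENO2, 0.13 and −0.07 for PFKP, 0.13 and −0.08 for PFKFB3 and 0.09 and −0.04 for SLC2A1. Over the arrays outside those columns PFKFB3 and ENO2 kept the ordering and SLC2A1 and PFKP did not, BNIP3 had it as well (2.89% of all genes did), and NDRG1 had the opposite one (1.66%). The ordering was noticed, and its repeat outside those columns chosen, after the values were seen. The groups with E2 and a second steroid were therefore also set against that steroid alone, as comparisons added at that point.

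PFKFB3 had the smallest adjusted p of the 37 genes over the groups. It makes fructose 2,6-bisphosphate, the strongest activator of phosphofructokinase, and so speeds glycolysis. In the groups without E2 its means lay between 11.42 and 11.63. With E2 the arrays read 12.27, 11.86, 12.16 and 11.85, and with E2+PROG 12.54, 12.80, 12.66 and 12.86, so that every E2+PROG array was above every E2 array. E2+PROG exceeded E2 by 0.68 (SE 0.15, 1.60-fold, adjusted p = 0.00482), the 1 gene of 37 past the threshold where 2.51% of all genes passed. PROG alone, at 11.27, 11.45, 11.39 and 11.63, differed from vehicle by −0.20 (95% interval −0.50 to 0.10, adjusted p = 0.381). The 2 effects of PROG differed, with an interaction of 0.88 (SE 0.21, adjusted p = 0.0194), again the 1 gene of 37, where 1.54% of all genes passed. Without vehicle replicate 1 the interaction was 0.80 (adjusted p = 0.0615), and leaving out E2 replicate 2 or 4, PROG replicate 1, or E2+PROG replicate 2 or 4 also ended this call, with values between 0.82 and 0.85.

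Against PROG alone, E2+PROG raised PFKFB3 by 1.28 (SE 0.15, 2.43-fold, adjusted p = 1.37e-07), and the call was kept under all 19 alternatives tried, with differences from 1.12 to 1.35. A second probe of the gene gave 0.95 (adjusted p = 0.0241 over probes). In E2s+PROG the arrays ran from 11.92 to 12.31, below all E2+PROG arrays, a fall of 0.62 (SE 0.15, adjusted p = 0.0186) from E2+PROG. It was the 1 gene of 37 past the threshold in that comparison, where 1.74% of all genes passed. Its second probe gave −0.38 there (adjusted p = 0.999 over probes), and the mean of both probes −0.50 (adjusted p = 0.313). Leaving out E2+PROG replicate 2 or 4 or E2s+PROG replicate 1 or 2 ended the call, with differences between −0.59 and −0.56. FKBP5 was 2.28-fold lower with E2s+PROG than with E2+PROG as well (limma adjusted p = 2.21e-07). E2+MPA, with arrays at 12.17, 11.91, 12.67 and 12.06, exceeded MPA by 0.78 (SE 0.15, 1.72-fold, adjusted p = 0.00162). The difference was 0.62 outside columns 13 to 24 (adjusted p = 0.0979). E2+DHT exceeded DHT by 0.47 and E2 exceeded vehicle by 0.40, and neither passed (adjusted p = 0.151 and 0.182).

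The same 2 comparisons called further genes of glucose use. E2+MPA against MPA had 2 of 37 genes past the threshold, both higher (1.35% of all genes passed), namely PFKFB3 and SLC2A1. SLC2A1 read 12.62, 12.94, 12.85 and 12.96 with MPA and 13.36, 13.20, 13.78 and 13.77 with E2+MPA. All E2+MPA arrays were the higher, by 0.68 on average (SE 0.13, 1.61-fold, adjusted p = 0.00258). The 2 E2+MPA arrays in columns 13 to 24 were the 2 highest, and outside those columns the difference was 0.44 (adjusted p = 0.349).

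E2+PROG against PROG had 4 of 37 genes past the threshold, all higher (4.81% of all genes passed, 3.76% in that direction). They were PFKFB3, ENO2, PKM and P4HA2. ENO2, the neuronal enolase isoform of lower glycolysis, was at most 11.08 on the PROG arrays, with a mean of 11.05, and read 11.58, 11.93, 11.71 and 12.05 with E2+PROG, a rise of 0.77 (SE 0.18, 1.71-fold, adjusted p = 0.00566) that was kept under all 19 alternatives. Outside columns 13 to 24 it was 0.60. PKM, the pyruvate kinase of the last glycolytic step, rose by 0.52 (SE 0.15, 1.43-fold, adjusted p = 0.0406). All E2+PROG arrays of PKM, from 11.85 to 12.33, were above the PROG arrays, from 11.44 to 11.77, but the call was kept under 9 of 19 alternatives and was lost without PROG replicate 2, 3 or 4 or E2+PROG replicate 2 or 4. Outside columns 13 to 24 it was 0.35 (adjusted p = 0.453). Its other probes gave 0.67 and 0.71 (adjusted p = 0.163 and 0.0579 over probes). E2+DHT against DHT had 0 of 37 genes past the threshold by limma (1.33% of all genes passed), with 6 at an unadjusted p under 0.05 (10.1%).

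PFKFB4, a second maker of fructose 2,6-bisphosphate, differed over the groups but in no single pair tested. Its means ran from 11.99 ± 0.12 (SD, n = 4) with vehicle to 12.63 ± 0.13 with E2+DHT. The E2+DHT arrays, from 12.44 to 12.71, lay above the E2 arrays, from 11.85 to 12.42, and the difference of 0.43 did not pass.

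The remaining enzymes of glycolysis moved little. Of the 11 tested genes of upper glycolysis, 1 passed in E2+PROG against E2 and 0 in the other 7 comparisons with vehicle or E2. None of the 6 genes of lower glycolysis passed in any of those 8 by limma. Between 0.0574% and 2.51% of all genes passed in each of the 8. ALDOC, a brain-enriched aldolase, had an E2 difference of 0.40 with all E2 arrays above all vehicle arrays, but it did not pass. Its difference in E2+DHT against E2 was −0.12, and that of PKM −0.18, the lowest of the 37 there. Over the 37 genes the median difference from vehicle was 0.04 with E2, 0.10 with DHT, −0.06 with MPA and 0.00 with PROG, on the log2 scale. All 12195 genes had medians of −0.02, −0.03, −0.10 and −0.11. With a second steroid added to E2, 29 of 37 fitted differences were above 0 for DHT, for MPA and for PROG. Of all genes, 44.2%, 47.8% and 44.9% had a fitted difference above 0. These 3 comparisons share the E2 arrays, and the genes' medians were 0.14, 0.17 and 0.11 against −0.03, −0.01 and −0.03 for all genes.

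At the exit of the pathway, LDHA, which makes lactate, had differences from −0.13 to 0.21 in the 8 comparisons with vehicle or E2. PDK1 and PDK3 shut off pyruvate dehydrogenase and so keep pyruvate out of the mitochondrion. Both were among the largest fitted falls against vehicle with each of the 4 single steroids, and none of these falls passed. PDK3 differed by −0.37, −0.58, −0.49 and −0.60 with E2, DHT, MPA and PROG, and the nearest to the threshold was DHT (adjusted p = 0.0600). A second PDK3 probe gave −0.05, 0.04, −0.17 and −0.16. PDK1 differed by −0.46, −0.43, −0.61 and −0.59. All these differences share the same vehicle arrays. Without vehicle replicate 1, PDK3 was −0.20, −0.41, −0.32 and −0.42 with E2, DHT, MPA and PROG. PDK1 was then −0.28 with DHT and −0.47 with MPA. Without vehicle replicate 4, PDK3 was instead −0.77, −0.68 and −0.78 with DHT, MPA and PROG, and each passed. PDK3 passed under 1 of 20 alternatives with E2 and 5 of 20 with DHT. With MPA and PROG it passed under 2 of 19 and 3 of 19. PDK1 passed under 0 of these alternatives. With E2+PROG against E2, PDK3 had a difference of −0.29, and with E2s+PROG against E2, PDK1 had −0.20 and LDHA −0.13, the lowest values in those comparisons, and none passed.

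Among the oxygen sensors and their transcription factor, 0 of 4 genes passed in any of the 8 comparisons with vehicle or E2 by limma. The shares of all genes that passed there were 0.0574% to 2.51%. EGLN3 passed with E2 in some other settings, given beside EGLN2 below. HIF1A and EGLN3, and the HIF targets P4HA1, a collagen prolyl hydroxylase, and KDM3A, a histone demethylase, had the widest spread inside groups, with SDs of 0.59, 0.64, 0.94 and 1.19. At each gene's brightest probe, they are the 4 of 37 with an SD of at least 0.5, which 8.68% of all genes reach. The median SD there was 0.24 over the 37 genes and 0.29 over all genes. Dimmer probes of BNIP3L, HK2, HK1, PGK1 and P4HA2 also reached 0.5, at 1.42, 1.15, 0.66, 0.52 and 0.52. A dimmer P4HA1 probe had 0.27. ARNT was above background on 9 of 36 arrays, EGLN3 on 24, LDHB on 25 and KDM3A on 32, so low values of these genes are near background.

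**Figure D3:**
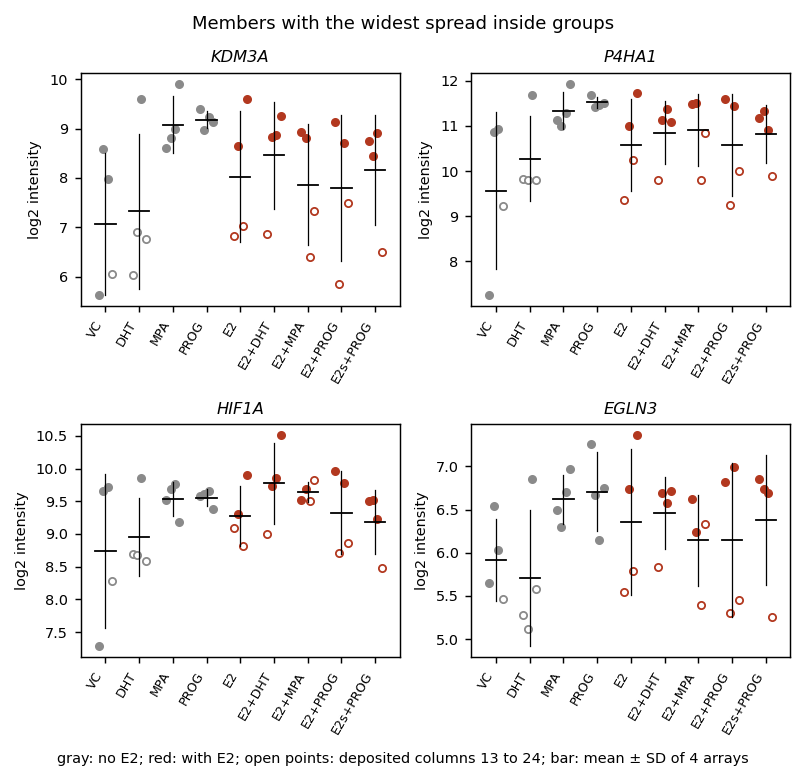
Normalized log2 intensity of KDM3A, P4HA1, HIF1A and EGLN3 (y axes) in the 9 groups (x axes), 1 point per array, gray without E2 and red with E2, open for deposited columns 13 to 24, with the mean ± SD of 4 arrays. Open points lie mostly at the bottom of their groups, with medians for KDM3A of 6.79 inside those columns and 8.89 outside, and MPA and PROG have no open points.

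KDM3A read 5.62, 8.58, 7.98 and 6.06 with vehicle and 9.39, 8.97, 9.22 and 9.14 with PROG. P4HA1 read 7.25, 10.87, 10.92 and 9.23 with vehicle and 11.68, 11.42, 11.47 and 11.49 with PROG. The vehicle arrays thus lay far apart while the PROG arrays lay close together. The fitted differences were 2.02 and 2.12 for KDM3A and 1.77 and 1.95 for P4HA1 with MPA and PROG, and none passed (adjusted p between 0.119 and 0.153). With E2 and DHT they were 0.96 and 0.26 for KDM3A and 1.01 and 0.71 for P4HA1, also without passing. With E2, KDM3A was 0.44 without E2 replicate 4 and 0.48 without vehicle replicate 1, and P4HA1 was 0.24 without vehicle replicate 1 and 0.63 without E2 replicate 4. With DHT, P4HA1 was −0.06 without vehicle replicate 1 and 0.24 without DHT replicate 3. Against E2, KDM3A differed by −0.16 with E2+MPA and −0.22 with E2+PROG, EGLN3 by −0.21 with E2+MPA, and HIF1A by 0.50 with E2+DHT, with adjusted p-values from 0.879 to 0.999. With MPA against vehicle 0 of 37 genes passed by limma (1.88% of all genes passed) and 10 had an unadjusted p under 0.05 (25.5% of all genes). With PROG 0 passed by limma (0.0574% of all genes) and 9 had an unadjusted p under 0.05 (23.6%). Both genes were lower in columns 13 to 24, with medians of 6.79 and 8.89 inside and outside for KDM3A and of 9.80 and 11.34 for P4HA1, and vehicle replicate 1 was lower still for both. No MPA or PROG array lies in those columns. Over arrays outside them KDM3A passed with MPA at 1.68 and with PROG at 1.79 (adjusted p = 0.0372 and 0.0319), and P4HA1 did not, at 1.65 and 1.83 (0.0696 and 0.051). KDM3A also passed outside them with E2, at 1.73 (adjusted p = 0.0485). With the columns as a block, KDM3A was 1.48 with MPA (adjusted p = 0.0489), 1.58 with PROG (0.0606) and 1.50 with E2 (0.0204), and P4HA1 was 1.36 with E2 (0.0461). Vehicle replicate 1 lies outside the columns, and with the block but without that array KDM3A was 0.78, 0.88 and 0.86 and P4HA1 0.48, 0.66 and 0.50 with MPA, PROG and E2, none of them past the threshold. In the model without the block, leaving out vehicle replicate 1 gave 1.54 and 1.64 for KDM3A and 1.00 and 1.17 for P4HA1 with MPA and PROG, without passing. Leaving out vehicle replicate 2, one of the higher vehicle arrays, instead brought KDM3A, P4HA1 and BNIP3, a mitophagy receptor, past the threshold with both steroids. A second P4HA1 probe, near background, gave 0.19 and 0.22.

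**Figure D4:**
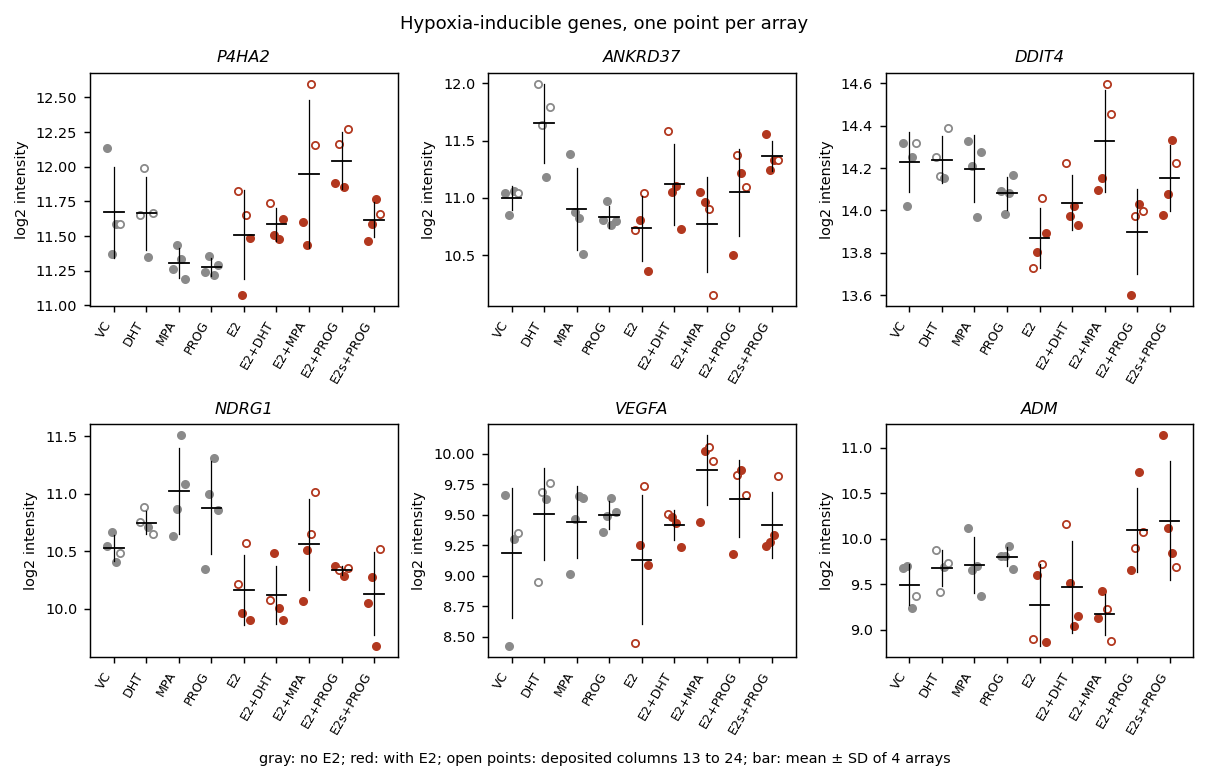
Normalized log2 intensity of P4HA2, ANKRD37, DDIT4, NDRG1, VEGFA and ADM (y axes) in the 9 groups (x axes), 1 point per array, gray without E2 and red with E2, open for deposited columns 13 to 24, with the mean ± SD of 4 arrays. ANKRD37 is highest with DHT at a mean of 11.65, DDIT4 is lowest with E2 at 13.87, and NDRG1 means run from 10.12 with E2+DHT to 11.02 with MPA.

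Of the 10 tested genes in the group of other hypoxia targets, 1, DDIT4, passed in any of the 8 comparisons with vehicle or E2. In each of the 8, between 0.0574% and 2.51% of all genes passed. PFKFB3, also hypoxia-inducible, is counted with upper glycolysis. DDIT4 restrains mTORC1 under low oxygen and is also induced by glucocorticoids. It read 13.73, 13.80, 14.06 and 13.89 with E2 and 14.10, 14.15, 14.60 and 14.46 with E2+MPA, so all E2+MPA arrays were the higher. The rise of 0.45 (SE 0.12, 1.37-fold, adjusted p = 0.0455) made it the 1 gene of 37 past the threshold, where 2.14% of all genes passed. It passed under 10 of 20 alternatives and was 0.28 outside and 0.63 inside columns 13 to 24, with neither passing, and leaving out E2 replicate 1, 2 or 4 or E2+MPA replicate 3 or 4 ended the call. MPA alone differed from vehicle by −0.03, and the interaction of 0.49 did not pass (adjusted p = 0.131). The mean with E2+MPA, 14.33 ± 0.24 (SD, n = 4), was near that with vehicle, 14.23 ± 0.14, and E2 had the lowest mean, 13.87 ± 0.14.

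ANKRD37, an ankyrin repeat protein whose gene is a HIF target, was highest with DHT. The DHT arrays read 11.99, 11.64, 11.18 and 11.80, and the PROG arrays 10.81, 10.98, 10.76 and 10.80, with no overlap. DHT exceeded PROG by 0.82 (SE 0.21, 1.76-fold, adjusted p = 0.0391), the 1 gene of 37 past the threshold where 1.38% of all genes passed. The call was kept under 7 of 19 alternatives, was lost when any array but DHT replicate 3 was left out, and was 0.35 outside columns 13 to 24, where DHT replicate 3 is the one DHT array. DHT exceeded vehicle by 0.65, with all DHT arrays above all vehicle arrays, and MPA by 0.75, and neither passed (adjusted p = 0.103 and 0.162). With E2s+PROG it differed from E2 by 0.63, the arrays lying from 11.24 to 11.56 against 10.36 to 11.04, and this did not pass. DHT against MPA had 0 of 37 genes past the threshold by limma (0.312% of all genes), with 6 at an unadjusted p under 0.05 (11.1%). MPA against PROG had 0 by limma (0.459% of all genes) and 0 at an unadjusted p under 0.05 (3.33%). DHT is an androgen and MPA and PROG are progestins, and their doses are not known to match, so these values stand side by side.

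P4HA2, a further collagen prolyl hydroxylase, read 11.24, 11.36, 11.22 and 11.29 with PROG and 11.89, 12.17, 11.86 and 12.27 with E2+PROG. The rise against PROG was 0.77 (SE 0.19, 1.70-fold, adjusted p = 0.0104). Of its other probes, the bright one gave 0.84 (adjusted p = 0.00736 over probes) and the dim one 0.04, and the mean of the 3 gave 0.55 (adjusted p = 0.183). Outside columns 13 to 24 the rise was 0.59 (adjusted p = 0.0825), and without E2+PROG replicate 4 it was 0.69 (0.0574). Against E2, E2+PROG differed by 0.54 with no overlap of arrays, and this did not pass. The interaction of 0.93 did not pass either (adjusted p = 0.0748). Both passed in the authors' processed table, with columns 13 to 24 as a block and with array weights. The interaction also passed outside those columns and without vehicle replicate 2 or E2 replicate 1. With the block but without vehicle replicate 1, the difference from E2 passed and the interaction did not.

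NDRG1, a stress-responsive gene that androgens also induce, ran from 10.12 ± 0.25 (SD, n = 4) with E2+DHT to 11.02 ± 0.37 with MPA. Its DHT arrays, from 10.65 to 10.89, were all above its E2+DHT arrays, from 9.91 to 10.49, and the difference of −0.63 did not pass. VEGFA, the main growth factor of new vessels, had a difference of 0.73 with E2+MPA against E2 (adjusted p = 0.101), and ADM, a vasodilator peptide, differed by 0.82 with E2+PROG (0.119) and 0.93 with E2s+PROG (0.546), with arrays from 8.86 to 9.72 in E2 and 9.69 to 11.14 in E2s+PROG. E2+DHT against E2 had 0 of 37 genes past the threshold by limma (1.08% of all genes passed) and 5 at an unadjusted p under 0.05 (5.93%). E2s+PROG against E2 had 0 by limma (0.0902% of all genes) and 3 at an unadjusted p under 0.05 (1.78%). The interactions of E2 with DHT and with MPA called 0 of 37 by limma (0.0082% and 0.0656% of all genes), with 2 and 6 at an unadjusted p under 0.05 (5.47% and 24.1%).

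Other genes of these pathways included larger responses. Of a further 97 listed genes 75 were tested, and 15 of 75 differed over the 9 groups (8.82% of all genes did). The list was drawn up with earlier results of these data known, so this share is no test of the pathways. The largest was EGLN2, a prolyl hydroxylase of HIF known as an estrogen-induced gene. It read 12.56, 12.33, 12.25 and 12.38 with vehicle and 13.55, 13.75, 13.90 and 13.71 with E2. The rise was 1.34 (SE 0.11, 2.54-fold, adjusted p = 2.15e-10), and against DHT, MPA and PROG the groups with E2 added were higher by 1.33, 1.68 and 1.37, all past the threshold. Both members of its family in the main list, EGLN1 and EGLN3, differed by −0.13 and 0.44 with E2 and did not pass. EGLN3 did pass with E2 over arrays outside columns 13 to 24 and with those columns as a block. With the block but without vehicle replicate 1, EGLN3 did not pass.

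STC2, a secreted glycoprotein induced by estrogen, read 9.59, 9.09, 8.92 and 9.03 with vehicle and 10.48, 10.27, 10.33 and 10.21 with E2, a rise of 1.17 (SE 0.14, adjusted p = 6.22e-07). It was lower with E2+MPA and E2+PROG than with E2, by −0.62 (adjusted p = 0.00953) and −0.59 (0.0123). EGLN2 and STC2 were the 2 of 75 past the threshold with E2 (1.86% of all genes passed). With DHT 5 of 75 passed (2.4% of all genes), 2 higher and 3 lower. The histone demethylase KDM4B rose by at least 1.99-fold over vehicle, in which 2 of 4 arrays exceeded background, and the mitochondrial pyruvate carrier subunit MPC2 rose by 0.48. EPAS1, which encodes HIF2A, fell by 0.66, VEGFC fell by 0.78, and the repressor BHLHE41 was at least 1.16-fold lower, with 0 of 4 DHT arrays above background.

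**Figure D5:**
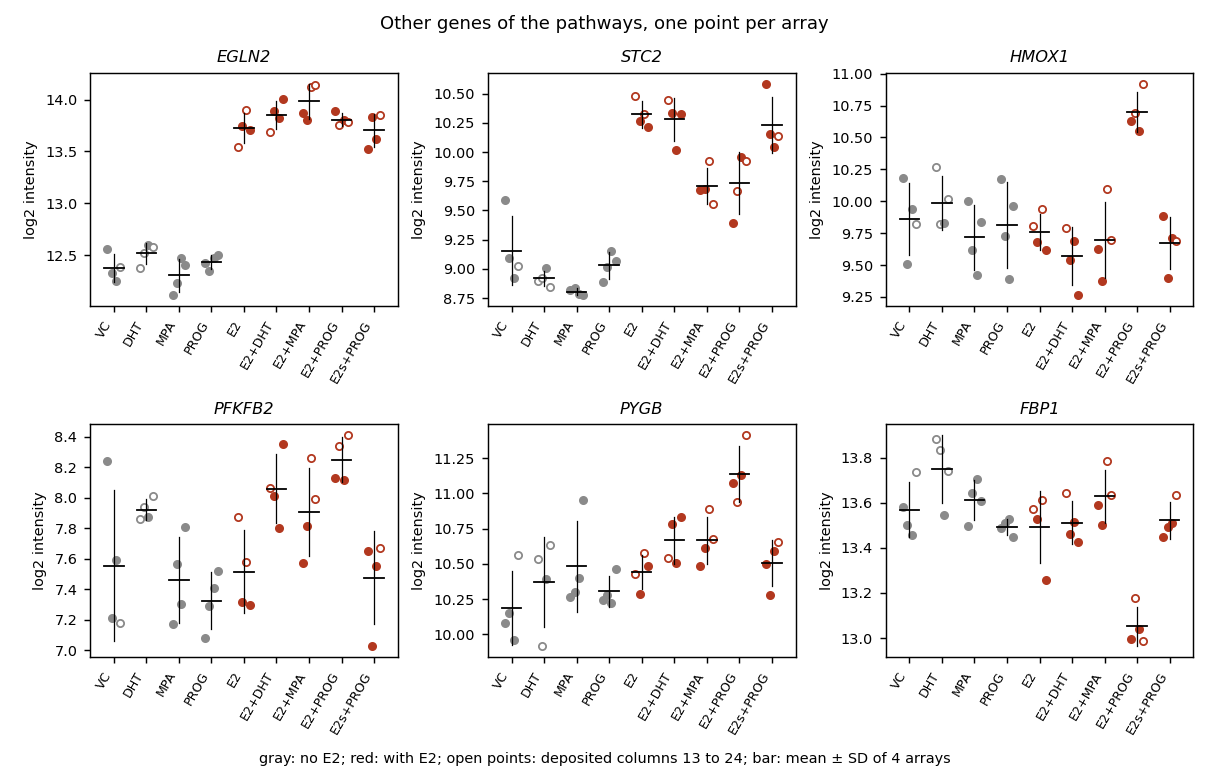
Normalized log2 intensity of EGLN2, STC2, HMOX1, PFKFB2, PYGB and FBP1 (y axes) in the 9 groups (x axes), 1 point per array, gray without E2 and red with E2, open for deposited columns 13 to 24, with the mean ± SD of 4 arrays. EGLN2 splits into arrays with and without E2, while HMOX1 is highest and FBP1 lowest with E2+PROG, at means of 10.70 and 13.05.

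E2+PROG changed 5 of 75 against E2 (2.51% of all genes), 3 higher and 2 lower. HMOX1, the heme oxygenase, rose by 0.94 (SE 0.17, 1.92-fold, adjusted p = 0.00074), from 9.81, 9.68, 9.94 and 9.62 to 10.63, 10.69, 10.55 and 10.92. PFKFB2, a further maker of fructose 2,6-bisphosphate, rose by 0.73 (adjusted p = 0.0311), and PYGB, a glycogen phosphorylase, rose by 0.69 (0.00827). FBP1, the gluconeogenic enzyme that opposes phosphofructokinase, fell by 0.44 (adjusted p = 0.0076), from arrays between 13.26 and 13.61 to arrays between 12.99 and 13.18. The fifth was STC2. With E2s+PROG, HMOX1, PFKFB2 and PYGB were lower than with E2+PROG by −1.03, −0.77 and −0.64 and FBP1 was higher by 0.47, all past the threshold, as were STC1 at 0.74 and INSIG2 at 0.46, which makes 6 of 75 (1.74% of all genes). The interaction of E2 with PROG called HMOX1 alone of the 75 (1.54% of all genes), at 0.99 (SE 0.24, adjusted p = 0.0276).

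With E2 added to a second steroid, STC1, a further secreted stanniocalcin, rose by 0.88 against DHT (adjusted p = 0.000204), and STC2 by 1.36 against DHT and 0.90 against MPA. CA12, a membrane carbonic anhydrase, rose by 0.79 against MPA (adjusted p = 0.0213), and MPC2 fell by 0.52 (0.0448). Against PROG, E2+PROG raised PFKFB2 by 0.92 and HMOX1 by 0.89, and INSIG2 and FBP1 fell by 0.65 and 0.44. DHT against PROG called KDM4B, at least 2.04-fold higher, and MPC2, higher by 0.51 (limma adjusted p = 0.0472). Of the 75 genes, 0 passed with MPA, PROG, E2+DHT or E2s+PROG in the comparisons with vehicle or E2 by limma, while 21, 9, 7 and 1 had an unadjusted p under 0.05 (25.5%, 23.6%, 5.93% and 1.78% of all genes).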

How the data were processed

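The authors deposited an unnormalized bead intensity with a detection p-value for each probe and array, per the file headers, and a second table of processed intensities. For each array the latter lay on a straight line of the former (slopes 0.324 to 1.573), so no log or quantile step had been applied. No aligner or scanner step beyond this is given in the sources used here.

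Intensities of all 36 arrays were normalized in R 4.3.3 with limma 3.58.1 by neqc (normexp background inferred from detection p, offset 16, quantile normalization, log2). The offset compresses folds of dim genes. Probes with detection p under 0.05 on at least 4 arrays were kept (21116 of 48803). Of 27578 probes with 1 gene symbol in the platform annotation, 27541 matched the reference gene table. Left unused were 21212 probes without a symbol and 13 that carry several. The brightest kept probe stood for each gene (58 kept probes for the 37 genes). A limma model with 1 mean per group (27 residual degrees of freedom) was fitted over all arrays, Benjamini-Hochberg adjusted over 12195 genes, with a threshold of 0.05. A gene not above background on all 4 arrays of the dimmer group has a bound, each such array taken at its own or its lowest signal above background, whichever is higher.

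Members, lists and tests were chosen with earlier results of these data known, and 3 comparisons of E2 plus a steroid with that steroid alone were added after seeing the values. Named were members past the threshold in any comparison, the 2 largest rises and falls in each of the 8 comparisons with vehicle or E2, and up to 3 other pathway genes per direction. Other genes are named for their role, or as examples chosen after their values were seen. Equal replicate numbers were not taken as pairs: residuals correlated from -0.733 to 0.698, with 63 of 144 pairs over 0.1. The median was 0.028 for equal numbers and -0.033 for different ones. The direction that arrays share inside groups enters these values, so they do not decide whether the numbers mark pairs. No 2 arrays were identical. The fit was tested on simulated data with independent noise for each gene and array. The direction that arrays share inside groups was not simulated.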

Additional observations from a re-analysis of the deposited data

Results flagged for a closer look

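In each group of 4 arrays the highest or lowest array was marked when its gap to the nearest other was too large a share of the group's range by Dixon's 95% critical value, for 34 genes, those whose values the naming rule selects. This marked 17 of 306 groups of arrays (5.56%), where chance gives 1 in 20 for independent groups. The groups of different genes share the same arrays and are not independent, so this share cannot tell whether the marks arose by chance. No single mark is relied on, and the cause of the marks was not tested.

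Vehicle replicate 1 was apart for SLC2A3 at 6.60 (others 7.45 to 7.50), SLC2A1 at 13.07 (12.89 to 12.90) and PFKFB4 at 12.17 (11.91 to 11.95), and vehicle replicate 2 for ANKRD37 at 10.85 (11.04 to 11.06). PFKFB4 was also apart at 11.64 in MPA replicate 1, at 11.72 in PROG replicate 1 and at 12.44 in E2+DHT replicate 3. DHT replicate 3, the DHT array outside columns 13 to 24, was apart for HIF1A at 9.85 (8.59 to 8.70) and for P4HA1 at 11.68 (9.80 to 9.83), and DHT replicate 1 for VEGFA at 8.95. EGLN3 was low at 5.84 in E2+DHT replicate 1 and at 5.26 in E2s+PROG replicate 4, each the array of its group inside those columns. VEGFA was high at 9.82 in E2s+PROG replicate 4, ALDOC low at 8.28 in E2+DHT replicate 4, ANKRD37 low at 10.15 in E2+MPA replicate 4, DDIT4 low at 13.60 in E2+PROG replicate 1, and EPAS1 high at 11.17 in E2+MPA replicate 3.

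The effect of PROG differed between cells with and without E2 for PFKFB3, by 0.88 on the log2 scale, and for HMOX1, by 0.99, each by an interaction term in limma (adjusted p = 0.0194 and 0.0276).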

How the results depend on the processing

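Calls at an adjusted p near 0.05 with 4 arrays a group moved with the settings, and the cause was not tested unless fewer arrays were used. Given first, beside the reported count in parentheses, is the number of listed genes past the threshold wherever a setting moved it by over 1.5 times. For E2 against vehicle (1) it was 3 in the authors' processed table, 0 with only the compared groups' arrays, 6 with columns 13 to 24 as a block, 4 outside and 0 inside those columns, 0 with array weights, and 0 to 2 with any array left out. For DHT (1) it was 2 without background correction, 0 with only the compared groups, 3 with the block, 0 outside, 0 inside, 3 with weights, and 1 to 2. For MPA (0) it was 1 with the block, 2 outside, and 0 to 3. For PROG (0) it was 2 outside, 1 with weights, and 0 to 4. For E2+DHT against E2 (0) it was 1 with the block and no vehicle replicate 1, and 2 with weights. For E2+MPA against E2 (1) it was 0 in the processed table, 0 with only the compared groups, 3 with the block and no vehicle replicate 1, 0 outside, 0 inside, 0 with weights, and 0 to 3. For E2+PROG against E2 (1) it was 2 in the processed table, 0 with only the compared groups, 2 with the block, with or without vehicle replicate 1, 0 inside and 3 with weights. DHT against MPA (0) had 8 with weights, and 0 to 1. DHT against PROG (1) had 0 in the processed table, with only the compared groups, with the block, with or without vehicle replicate 1, and outside, 10 with weights, and 0 to 3. E2s+PROG against E2+PROG (1) had 0 with the mean of probes, with only the compared groups, outside and inside, and 0 to 1. The interaction of E2 and MPA (0) had 0 to 1 with an array left out. The interaction of E2 and PROG (1) had 0 with only the compared groups, 2 in the processed table, with the block, outside and with weights, and 0 to 2. The F test (8) had 13 with weights, 6 to 9 with an array left out, and from 6 (processed table) to 11 (block without vehicle replicate 1) in the others. Of the comparisons chosen after seeing the data, E2+DHT against DHT (0) had 1 in the processed table and with the block, with or without vehicle replicate 1, and 5 with weights. E2+MPA against MPA (2) had 1 in the processed table, 0 with only the compared groups, 0 outside, and 2 to 6. E2+PROG against PROG (4) had 2 outside, 6 with weights, and 2 to 5 with an array left out. These 2 could not be run inside columns 13 to 24, which hold no MPA or PROG array, and a lone array in a subset was assumed to vary like the other groups. Fitted values that changed sign were all of differences that had not passed. Outside or inside columns 13 to 24 these were PDK3 with E2 at 0.27, PKM and ALDOC with E2+DHT at 0.017 and 0.068, EGLN3 with E2+MPA at 0.19 and PDK1 with E2s+PROG at 0.0012. With weights P4HA1 was −0.52 with DHT and KDM3A 0.14 with E2+MPA, and in the processed table LDHA was 0.14 with E2s+PROG. With 1 array left out, P4HA1 ran from −0.064 to 1.16 with DHT, ALDOC from −0.18 to 0.032 with E2+DHT, EGLN3 from −0.49 to 0.12 and KDM3A from −0.56 to 0.37 with E2+MPA, and KDM3A from −0.67 to 0.43 with E2+PROG. The replicate block changed none of the pairwise calls (SLC2A3 with E2 kept an adjusted p of 0.0348) and left 8 genes in the F test, with ADM in place of P4HA2 (adjusted p = 0.0740). Genes near background, such as ARNT, EGLN3, LDHB and KDM3A, have compressed differences, and 4 arrays a group limit the precision.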
